A study of Camellia japonica and Camellia azalea with 81 samples.

Results

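Leaf RNA of Camellia azalea was compared between summer and spring. The summer group held the 9 leaf libraries labelled Jun, Jul and Aug, and the spring group held the 9 labelled Mar, Apr and May, so that 18 of the 81 libraries of the series entered the comparison. They were picked by species and month label alone. Each month had 3 libraries and each season 3 months. The tissue was given as young leaf for both seasons, and no treatment, genotype, plant age, year or hour of sampling was stated. Nothing in the labels tells whether libraries of 1 month came from different plants, so the p-values here measure no more than the spread among these samples, and that spread may be technical. The rest of the series was 18 further leaf libraries of C. azalea from the other 6 months, 36 leaf libraries of Camellia japonica from the same 12 months and 9 flower bud libraries of C. japonica.

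Camellias are evergreen shrubs of the tea family that keep leaves through the year and renew them in flushes of new shoots. C. azalea is known for opening its flowers mainly in the warm months, whereas C. japonica opens them in the cold months and early spring. In plants of this kind, leaves sense day length and temperature and send signals to the shoot tips where flowers form, and the RNA made in leaves follows the season and the age of the leaf.

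The values were TPM, length-corrected shares of the transcripts in a library that add up to 1000000 over 41982 gene IDs. The sequencing depth of the libraries is unknown, because TPM keep no depth. The IDs carried no gene names, so leaf markers could not be looked up and IDs are given here as deposited, without a role. In whole-leaf RNA, fewer cells of a type and less RNA per cell cannot be told apart. Between 20202 and 24041 IDs reached 1 TPM in the summer libraries (median 21966), and between 20063 and 25075 in the spring libraries (median 23446). The month means of this number averaged 22060 in summer and 22983 in spring, and an exact permutation test over the 6 months gave p = 0.1, the smallest value that 3 months against 3 can give. The 10 most abundant IDs of a library held between 7.97% and 22.3% of TPM in summer and between 7.63% and 22.5% in spring. Across genes, 8 of 9 summer libraries and 7 of 9 spring libraries correlated best with another library of their own month. The exceptions were Aug 3 in summer, and Mar 2 and May 1 in spring.

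The 18 libraries did not fall into a summer and a spring block on their main axis of variation. In a principal component analysis, the first component held 38% of the variance and set Apr 1 and Mar 2 (scores of 108.7 and 104.9) against Jul 3 and May 1 (-85.8 and -102.6). Jul 3 and May 1 were also the libraries with the fewest IDs at 1 TPM of their seasons, 20202 in Jul 3 and 20063 in May 1, and what this contributed to the results below was not tested. The second component, with 17.4% of the variance, was the one that followed the calendar. Its month means were -70.4 in Mar, -28.4 in Apr, -4.29 in May, 34.1 in Jun, 64.7 in Jul and 4.40 in Aug. Summer thus lay above spring on this axis in every month mean, but May and Aug were neighbours, and the Aug libraries (between -14.3 and 30.6) overlapped those of May (between -6.99 and 0.323). The third component, with 14.2%, set Jun apart at a month mean of -74.2, against -29.4 in Apr and between 13.2 and 42.04 in the other 4 months.

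**Figure D1:**
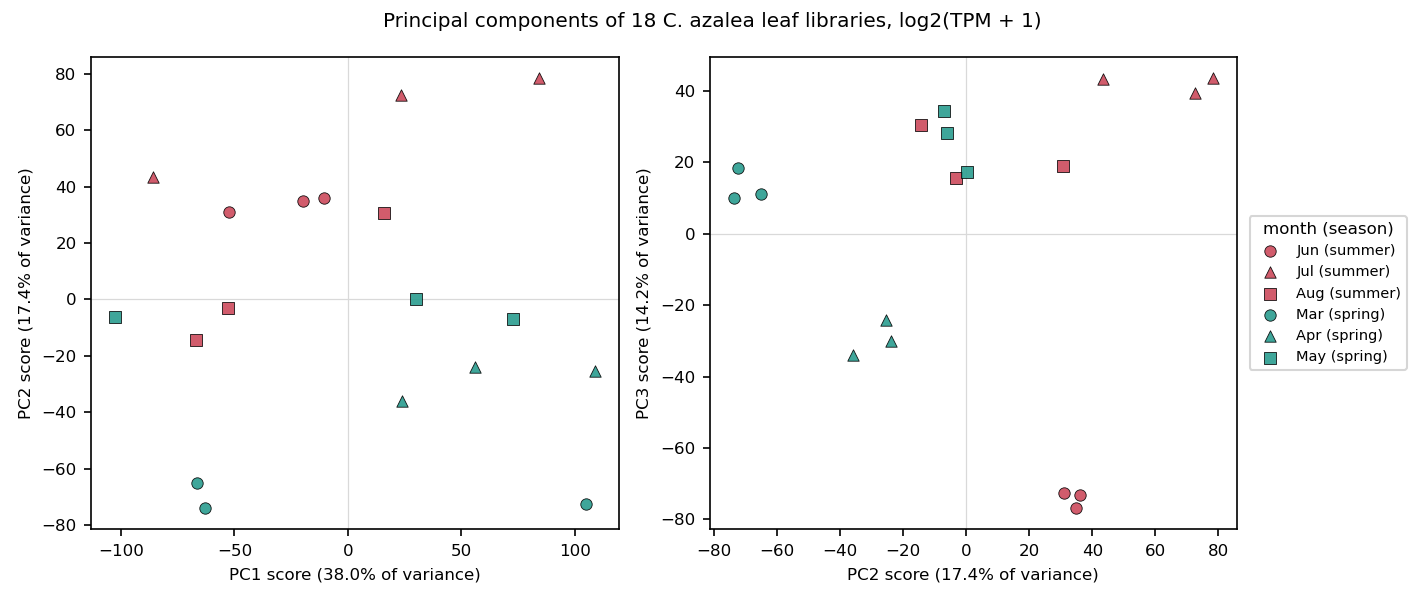
Scores (arbitrary units) of the 18 C. azalea leaf libraries on principal components of log2(TPM + 1), with the second against the first component on the left and the third against the second on the right, each point a library, with colours for summer and spring and a marker for each month. Along the second component Jul and Mar lie at opposite ends and May and Aug meet near the middle, and the 3 Jun libraries sit apart at the low end of the third.

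Across the leaf transcriptome, more IDs were lower in summer than were higher. Of 27492 IDs tested, 1251 were called (4.55%), of which 354 were higher in summer (1.29%) and 897 were lower in summer (3.26%). A call needed a difference between the season means of at least 1 on the log2(TPM + 1) scale and a Benjamini-Hochberg adjusted p below 0.05 in limma, where each season mean was the average of its 3 month means. The median difference of all tested IDs was -0.14, so that the whole distribution leaned to the lower side in summer. Rescaling each library by its median ratio to the average library brought that median to -0.01 and gave 1191 calls (4.33%), 501 higher and 690 lower. A total of 1033 calls were made in the same direction under both scalings, 345 of them higher in summer and 688 lower. The excess of lower calls was thus smaller after rescaling but kept its direction.

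The limma fit sets the season difference against the spread between libraries of the same month. In another fit the 12 month means of C. azalea leaves were the units, with a mean for each season of the year. The spread between months within a season, taken over all seasons, then entered the test. In that fit limma called 3 IDs, all lower in summer, and 1602 of the 27492 IDs tested had an unadjusted p below 0.05. With no season difference, a share of about 0.05 of the IDs would fall below that limit by chance. Most of the calls described here therefore hold for these months against the spread within months, and were not shown against the variation from month to month.

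The called IDs mostly changed in level, and few were on in every library of 1 season and off in every library of the other. Among the 354 summer-high IDs the median difference was 1.33 on the log2 scale and the median level was 16.2 TPM in summer against 3.91 TPM in spring. Among the 897 spring-high IDs the median difference was -1.28 and the median level was 2.84 TPM in summer against 10.4 TPM in spring. Differences of at least 2 were found for 29 summer-high and 122 spring-high IDs, and differences of at least 3 for 4 and 22 of them. A mean below 1 TPM in the lower season was seen for 64 of the summer-high and 227 of the spring-high IDs. It was also seen for 5248 of all 27492 tested IDs, so such a low level was not particular to the called IDs. Only 2 summer-high and 2 spring-high IDs were listed at 0 in all 9 libraries of the other season. No summer-high ID was at 1 TPM or more in all 9 summer libraries while below 1 TPM in all 9 spring libraries, and 7 spring-high IDs did so with the seasons exchanged. Such rules need every library to fit, and these counts were not made over all tested IDs.

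The IDs with the largest differences named here were taken by a set rule from the called IDs that averaged 5 TPM or more in their higher season. EVM0018558 had the largest rise. Its level in the 9 summer libraries was 17.4 TPM at the lowest, 44.4 TPM at the median and 322 TPM at the highest, against 0, 0.727 and 10.2 TPM in the 9 spring libraries. Every summer library stood above every spring library, and the 3 Jul libraries held the widest spread (302.6, 321.8 and 57.6 TPM). The season difference was 4.49 ± 0.54 (SE) on the log2(TPM + 1) scale, with an adjusted p of 8e-07 in limma, and the differences of single summer months from spring were 3.19 for Jun, 6.17 for Jul and 4.11 for Aug. EVM0018065 was at 109, 164 and 310 TPM (lowest, median and highest) in summer, against 0.539, 8.29 and 124 TPM in spring. Here 8 of 9 summer libraries lay above all spring libraries, since May 2 exceeded Aug 2. The difference was 3.89 ± 0.52 (adjusted p = 4.5e-06, limma), but summer against May alone gave 1.75 ± 0.74 and an adjusted p of 0.37.

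EVM0034352 had the largest fall. It was nearly silent in summer, with 0.0798, 1.05 and 3.41 TPM at the lowest, median and highest, against 1.94, 148 and 762 TPM in spring. The seasons touched at May, where the libraries May 1 and May 2 held 2.21 and 1.94 TPM, within the summer range, and the other 7 spring libraries stood above all summer libraries. The difference was -5.48 ± 0.71 (adjusted p = 2.3e-06, limma), and summer against May alone gave -2.51 ± 1.00 (adjusted p = 0.31). EVM0009120 was at 6.49, 40.8 and 91.9 TPM in summer, against 104, 674 and 2095 TPM in spring, with no overlap of the seasons. Its difference was -4.44 ± 0.34 (adjusted p = 8.6e-11, limma), and among these 6 months it was lowest in Jul and highest in Mar, at a mean of 8.47 ± 2.31 TPM in Jul and 1587 ± 521 TPM in Mar (SD, n = 3 each). With month means as the units none of these 4 IDs was called, at adjusted p values of 0.11 for EVM0018558, 0.51 for EVM0018065 and 0.64 for both IDs that fell.

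Few IDs kept the seasons fully apart. All 9 summer libraries lay above all 9 spring libraries for 6 of the 354 summer-high IDs (1.69%), and all 9 lay below for 82 of the 897 spring-high IDs (9.14%). Over all tested IDs, called or not, such a complete separation was found for 13 IDs in the upward direction (0.0473%) and 107 in the downward direction (0.389%). The calls themselves rest on the same libraries, so these shares are a description of how the called IDs were built up.

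The IDs with the widest gap were picked from those whose 9 summer libraries all lay above, or all below, the 9 spring libraries. Their step in every month therefore follows from the rule. EVM0026539 was at 14.9, 23.2 and 34.8 TPM (lowest, median and highest) in summer, against 1.81, 3.62 and 5.29 TPM in spring. Its difference was 2.39 ± 0.18 (adjusted p = 5e-11, limma), and the single summer months differed from spring by 1.91 in Jun, 2.57 in Jul and 2.68 in Aug. EVM0009890, an abundant RNA, was at 995, 1134 and 2088 TPM in summer, against 278, 418 and 529 TPM in spring, with a difference of 1.69 ± 0.18 (adjusted p = 7.4e-08, limma). By the rule, both rising IDs were above the spring range in each of the 9 summer libraries. Neither passed with month means as the units (adjusted p of 0.062 for EVM0026539 and 0.24 for EVM0009890, limma).

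Among IDs that fell in every summer month, EVM0025712 was at 8.22, 14.97 and 36.9 TPM in summer, against 92.6, 199 and 267 TPM in spring. EVM0036909 was listed at 0 TPM at both the lowest and the median library in summer and at 1.70 TPM at the highest, against 5.62, 14.2 and 32.6 TPM in spring. The nearest libraries of the seasons were 1.305 log2 units apart for EVM0025712 and 1.29 for EVM0036909. That neither ID overlapped follows from the rule. EVM0025712 differed by -3.32 ± 0.16 (adjusted p = 3.6e-15, limma) and EVM0036909 by -3.60 ± 0.25 (adjusted p = 2.1e-11, limma). These IDs were 2 of the 3 calls with month means as the units, at adjusted p values of 0.0061 for EVM0025712 and 0.0056 for EVM0036909. The third, EVM0011051, lay outside the rule and was picked after its values were seen. It was at 0, 0 and 0.553 TPM in summer, against 1.22, 7.97 and 11.5 TPM in spring, with an adjusted p of 0.0056 in that fit.

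**Figure D2:**
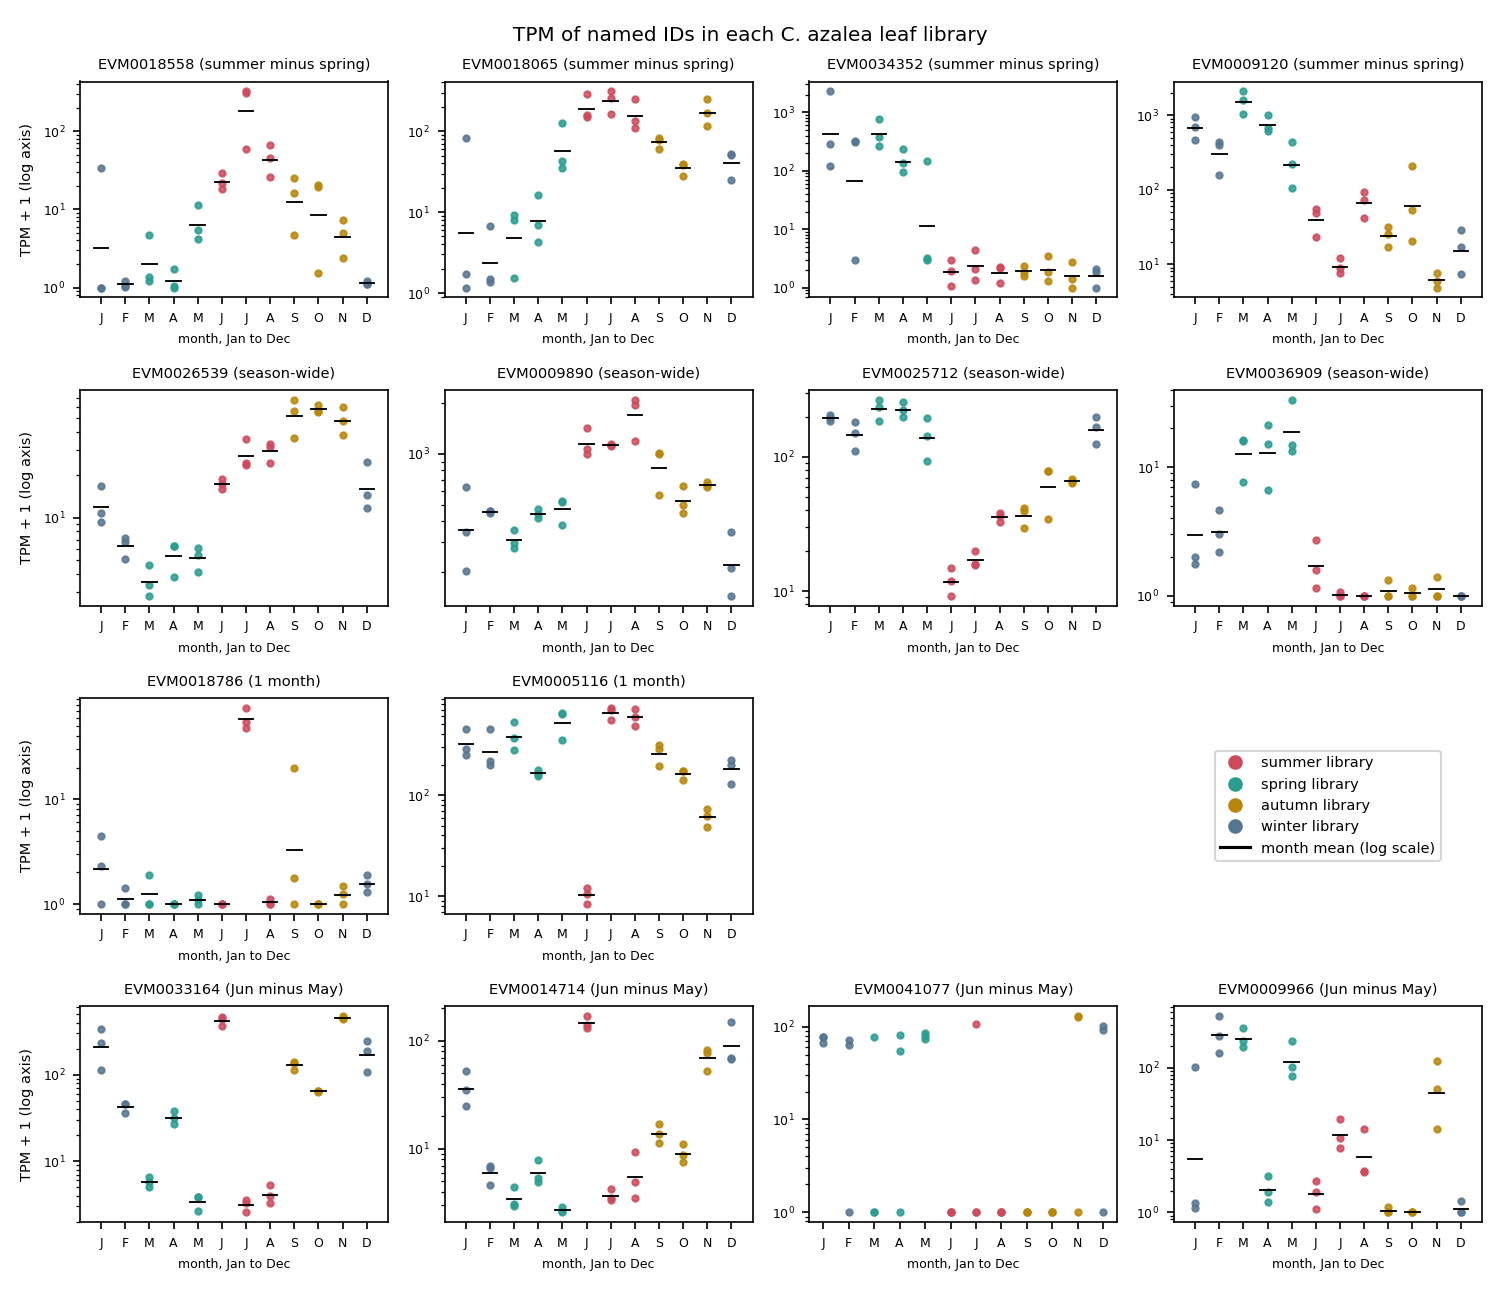
TPM + 1 (log axis) of 14 named IDs in each C. azalea leaf library (points, coloured by season) through the 12 months, with a short line at the mean of each month on the log scale except for EVM0041077. The season-wide IDs EVM0025712 and EVM0036909 drop at the step between May and Jun, EVM0033164 is high in Jun and again in Nov, and EVM0018786 is high only in Jul among the spring and summer months.

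The season difference was not shared evenly by the months. Set against the spring mean, Jun gave 2457 calls (8.94%), Jul 2273 (8.27%) and Aug 989 (3.6%). The calls in Jun were 1036 higher and 1421 lower, those in Jul 827 higher and 1446 lower, and those in Aug 115 higher and 874 lower. After rescaling, Jun turned to more higher than lower calls (1522 and 1164), Jul kept its excess of lower calls (976 and 1502), and Aug had 309 higher and 676 lower. Aug therefore stood closest to spring by the number of calls under both scalings, with 985 after rescaling against 2686 for Jun and 2478 for Jul. Single libraries weighed on the counts, but Aug had the fewest calls in every fit with a library left out, a setting added for single months after seeing the data. Aug had 1495 calls without May 1, 591 without Aug 1 and 280 without Aug 2, and Jun had 913 lower calls without Jun 1. Jul had 427 higher calls without Jul 1 and 477 without Jul 2, and without Jul 3 its excess turned round, at 1326 higher and 1014 lower. Without the 3 libraries that correlated best with another month, a setting chosen after seeing the data, Jun gave 2590, Jul 2350 and Aug 1531 calls.

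Among the spring months, May stood closest to summer. The summer mean differed from Mar in 2452 IDs (8.92%), from Apr in 2200 (8%) and from May in 295 (1.07%). The calls were 1010 higher and 1442 lower in summer against Mar, 246 higher and 1954 lower against Apr, and 81 higher and 214 lower against May. The comparison with Apr depended on the scaling, since the median of all tested IDs was -0.39 there. After rescaling it gave 1243 calls, 586 higher and 657 lower in summer, while Mar gave 2824 and May 526. May gave the fewest calls in every fit with a library left out. Its count was 371, with 41 higher and 330 lower, without May 1, 132 without May 2 and 155 without May 3. Against Apr there were 1054 calls without Apr 1, 1390 without Apr 2 and 150 higher and 1497 lower without Apr 3. Against Mar there were 642 higher and 1545 lower calls without Mar 1, and 1253 higher and 866 lower without Mar 2. Without the 3 libraries named above, Mar gave 2053, Apr 2923 and May 735 calls. These 6 comparisons share libraries with each other and with the season comparison.

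**Figure D3:**
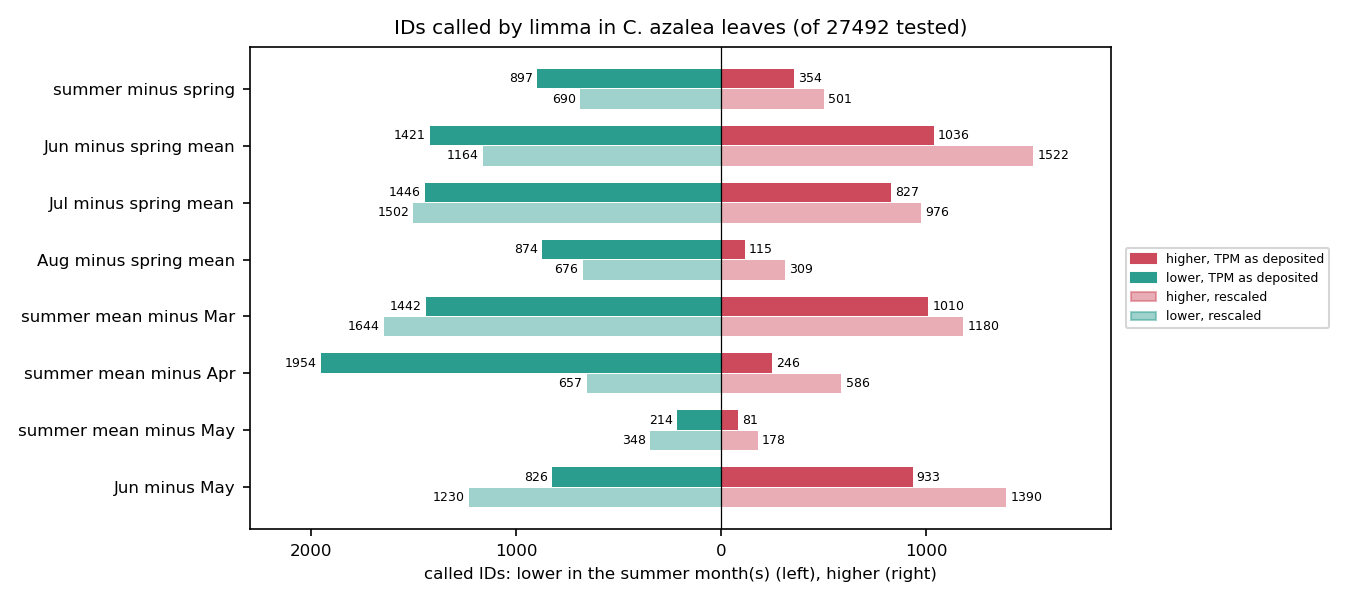
Number of called IDs (horizontal axis) that were higher or lower in the first-named group of each comparison, for TPM as deposited and after median-of-ratios scaling. Jun and Jul differ from spring in more IDs than Aug does, and summer differs from May in the fewest, 295 as deposited.

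The months of highest and lowest level within each season were counted among the called IDs only. These IDs were called on the same libraries, so the counts describe the calls and are no separate support for the month comparisons. Of the summer-high IDs, 195 were highest in Jul, 124 in Jun and 35 in Aug among the summer months, and 268 were lowest in Mar, 65 in Apr and 21 in May among the spring months. Of the spring-high IDs, 509 were lowest in Jul, 211 in Jun and 177 in Aug, and 492 were highest in Mar, 356 in Apr and 49 in May. After rescaling, 236 of the 501 summer-high IDs were highest in Jul, 212 in Jun and 53 in Aug, so that Jun came close to Jul. The rescaled spring-high IDs were more often highest in Mar, 506 of 690, with 129 in Apr and 55 in May, so that the share of Apr was 18.7%, against 39.7% as deposited. All 3 summer month means lay above all 3 spring month means for 146 of the 354 summer-high IDs (41.2%), and all 3 lay below for 620 of the 897 spring-high IDs (69.1%). The same order occurred in 2.13% of all tested IDs in the upward direction and in 11.7% in the downward direction. For 39 summer-high IDs a single summer month lay above all spring months, and for 31 spring-high IDs a single spring month lay above all summer months.

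EVM0018786 showed how 1 month can carry a season call. In Jul it was at 73.4, 46.8 and 53.2 TPM, the other 6 summer libraries held at most 0.12 TPM, and the 9 spring libraries were at 0, 0 and 0.886 TPM (lowest, median and highest). The Jul libraries therefore stood alone, and the rest of summer overlapped spring. The season difference of 1.82 ± 0.33 (adjusted p = 2.4e-04, limma) became -0.12 (adjusted p = 0.86) without Jul. EVM0005116 was a mixed case. It was at 11.1, 7.40 and 9.504 TPM in Jun, at 690, 730 and 550 TPM in Jul and at 711, 587 and 486 TPM in Aug, against 155, 350 and 645 TPM (lowest, median and highest) in spring. Jun lay below all spring libraries, whereas the Jul and Aug libraries lay in the upper part of the spring range or above it. The season difference of -1.02 ± 0.18 (adjusted p = 1.5e-04, limma) came to 0.95 (adjusted p = 0.0012) without Jun, and to -0.86, short of the size limit, after rescaling.

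At the border between the seasons, Jun set against May gave 1759 calls (6.4%), 933 higher in Jun and 826 lower in Jun. After rescaling the calls were 2620, 1390 higher and 1230 lower. The lower calls depended on single libraries, with 1591 without May 1, 491 without May 2, 440 without May 3 and 522 without Jun 1, and the higher calls came to 613 without Jun 3. Without May 1, Mar 2 and Aug 3 together the calls were 866 higher and 2238 lower, so that the lower calls then prevailed.

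The largest rises at this border were spikes of Jun. EVM0033164 was at 361, 445 and 466 TPM in Jun, against 1.66, 2.85 and 2.82 TPM in May, a difference of 6.96 ± 0.30 (adjusted p = 4.6e-17, limma). The Jul and Aug libraries were back between 1.56 and 4.30 TPM, and the season difference of 1.04 became -1.26 without Jun. Its next peak of like height was in Nov, at 456 ± 19.8 TPM (SD, n = 3). EVM0014714 was at 131, 138 and 169 TPM in Jun, against 1.65, 1.59 and 1.89 TPM in May, a difference of 5.75 ± 0.34 (adjusted p = 7.5e-14, limma), and its season difference of 1.91 became 0.23 without Jun. Both IDs thus separated Jun from May in every library, while their Jul and Aug levels overlapped those of spring.

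The largest falls at the border were less regular. EVM0009966 was at 0.93, 0.11 and 1.74 TPM in Jun, against 232, 102 and 76.4 TPM in May, a difference of -6.09 ± 0.95 (adjusted p = 4.4e-05, limma). Its Apr libraries were as low as those of Jun, at 1.18 ± 0.937 TPM (SD, n = 3), so the fall was one of several swings of this ID. EVM0041077 was listed at 0 in all 3 Jun libraries, against 78.7, 72.8 and 84.2 TPM in May, and limma gave an adjusted p of 0.036. It was listed at 0 in some libraries and well above 0 in others of the same month, as in Mar (0, 75.6 and 0 TPM) and Apr (53.5, 0 and 80.1 TPM). Its call was lost whenever a Jun or a May library was left out, with adjusted p values of up to 0.098.

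The called IDs traced different courses through the rest of the year. The median summer-high ID was lowest in Mar (-1.28 log2 units from its own annual mean), still low in Apr (-0.52) and May (-0.35), high in Jun (0.93) and Jul (1.16), and back at -0.11 in Aug. It was above its annual mean again in Sep (0.55), Oct (0.47) and Nov (1.17). The median spring-high ID was already high in Jan (1.12) and Feb (1.00), stayed high in Mar (1.08) and Apr (0.87), was at 0.26 in May and lay between -1.01 and -0.48 from Jun to Dec. Over all tested IDs the monthly medians ran between -0.31 in Dec and 0.36 in Jan, with 0.26 in Nov. After rescaling, the summer-high median was lowest in Feb (-1.36) and was 0.10 in Aug and 0.84 in Nov, and the spring-high median was 0.74 in Jan and 1.26 in Mar.

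The month of highest level over the whole year reflected these courses. Of the 354 summer-high IDs, 133 peaked in Jul, 103 in Nov, 60 in Jun and 24 in Aug. Of the 897 spring-high IDs, 310 peaked in Jan, 141 in Feb, 189 in Mar, 189 in Apr and 31 in May, and 351 had their lowest month in Dec and 217 in Jul. Months of peak and lowest level were not counted over all tested IDs, so no background share is given. The deposited medians of all tested IDs were also raised in Jan (0.36), Feb (0.27), Apr (0.23) and Nov (0.26), and lowest in Dec (-0.31). What this contributed to the counts was not tested. These peaks depended on the scaling. After rescaling, 179 of the 501 summer-high IDs peaked in Jul, 135 in Jun and 73 in Nov, so that Nov fell behind Jun, at 14.6% against 29.1% as deposited. Of the 690 rescaled spring-high IDs, 329 peaked in Mar, 130 in Jan, 92 in Apr and 64 in Feb. The library Jan 1 correlated best with Apr 1 rather than with its own month. Without it, a setting chosen after seeing the data, the Jan median of the spring-high IDs was 1.10 and 363 of them peaked in Jan. The summer-high IDs were thus, at the median, high again in autumn after a dip in Aug. The spring-high IDs were already high in Jan and Feb but low in Dec (-1.01 as deposited).

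**Figure D4:**
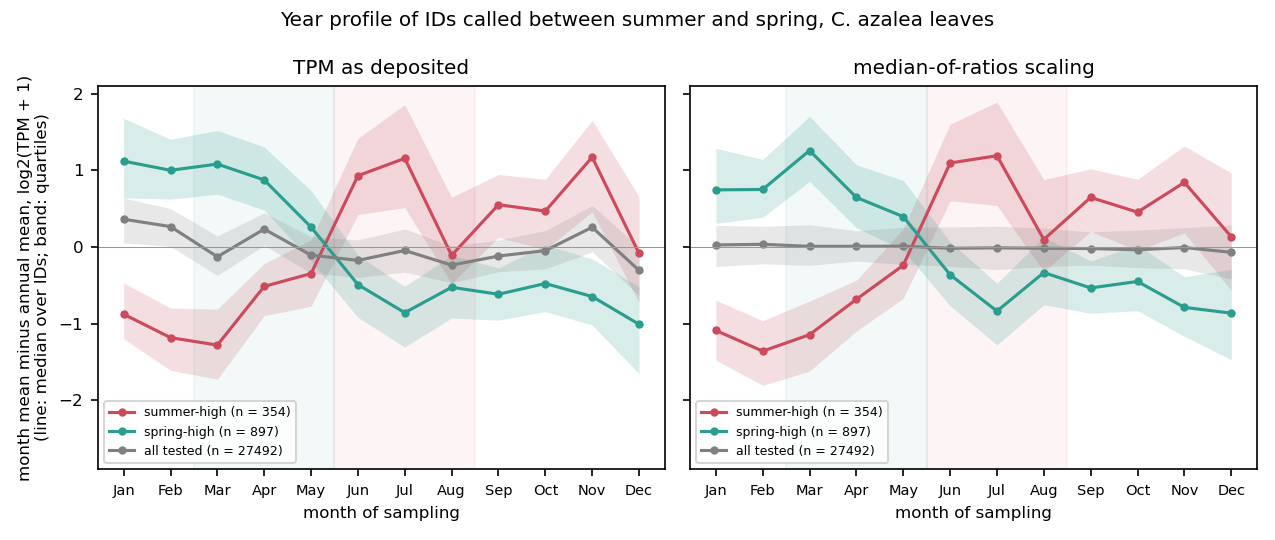
Median over the summer-high and the spring-high IDs, and over all tested IDs, of the month mean minus the annual mean of each ID (log2, vertical axis) through the 12 months, for TPM as deposited and after median-of-ratios scaling, with bands for the quartiles. The summer-high median peaks in Jul and Nov with a low point in Aug, and the spring-high median is high from Jan to Apr.

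C. japonica leaves of the same months shared some of the calls with C. azalea and had others in the opposite direction. The tables of the species were normalized separately, so that levels were compared only within a species and the species were set against each other by their season differences. In C. azalea the counts were 354 higher and 897 lower in summer, and in C. japonica limma called 1933 of 29156 IDs (6.63%), 430 higher and 1503 lower in summer (722 and 761 after rescaling). Among the 25478 IDs tested in both species, 25 were higher in summer in both, which is 7.62% of the C. azalea rises and 6.51% of the C. japonica rises. Over all 25478 IDs, C. japonica rises made up 1.51%. A total of 84 were lower in both, which is 10.05% of the C. azalea falls and 6.26% of the C. japonica falls, where C. japonica falls made up 5.26% of all 25478 IDs. The shared calls were thus more frequent among the C. azalea calls than over all IDs, and this was not tested. Calls in opposite directions were found for 85 IDs that were higher in summer in C. azalea and lower in C. japonica. That is 25.9% of the C. azalea rises, against C. japonica falls at 5.26% of all IDs. The reverse was found for 55, 6.58% of the C. azalea falls, against C. japonica rises at 1.51% of all IDs. Opposite calls were thus also more frequent than over all IDs, and this too was not tested. After rescaling, 41 were higher in both, 38 lower in both, and 77 and 59 were opposite, with C. japonica rises at 2.61% and falls at 2.60% of all IDs. The C. japonica libraries followed their month labels less closely, with 2 of 9 summer and 2 of 9 spring libraries correlating best with their own month, against 8 and 7 in C. azalea. What this contributed to the counts was not tested.

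The difference between the season effects was tested directly over both tables. Of 31584 IDs, 2398 were called (7.59%), 1426 with a larger summer minus spring difference in C. azalea (4.51%) and 972 with a smaller one (3.08%). After rescaling there were 2653 calls, 1288 larger and 1365 smaller, so which direction prevailed depended on the scaling. With month means as the units 162 were called, 116 larger and 46 smaller, and 3682 of the 31584 IDs had an unadjusted p below 0.05.

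The largest species differences were opposite changes of the season means. EVM0007918 was at 14.3, 47.3 and 64.1 TPM in summer and at 1.10, 4.02 and 15.2 TPM in spring (lowest, median and highest) in C. azalea, a rise of 2.84 ± 0.40 (adjusted p = 8.2e-06, limma). In C. japonica it was at 0, 4.22 and 23.3 TPM in summer and at 5.47, 22.03 and 254 TPM in spring, a difference of -2.58 ± 0.74 (adjusted p = 0.014). The difference of differences was 5.42 ± 0.86 (adjusted p = 1.9e-05), and it also passed with month means as the units. EVM0011960 differed by 5.15 ± 1.07 (adjusted p = 7.3e-04, limma), with 10.04, 60.7 and 494 TPM in summer against 5.78, 19.6 and 81.2 TPM in spring in C. azalea, and 2.78, 15.8 and 94.7 TPM in summer against 44.6, 98.0 and 2200 TPM in spring in C. japonica. The C. azalea rise of EVM0011960 was 1.80 ± 0.56 (adjusted p = 0.03, limma) and became 0.69 without Jul. The seasons overlapped in both species for both IDs.

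In the other direction, EVM0029638 was at 67.4, 330 and 1623 TPM in summer against 227, 1152 and 1735 TPM in spring in C. azalea, and at 4.71, 449 and 1189 TPM in summer against 2.24, 4.04 and 712 TPM in spring in C. japonica. The species difference was -6.32 ± 1.21 (adjusted p = 2.6e-04, limma). In C. azalea the season difference of EVM0029638 was -1.26 ± 0.38 (adjusted p = 0.023, limma) and became -0.73 without Jul. EVM0020995 was at 12.02, 54.9 and 366 TPM in summer against 64.2, 222 and 601 TPM in spring in C. azalea, and at 0.21, 41.8 and 179 TPM in summer against 0, 0 and 49.9 TPM in spring in C. japonica. Its species difference was -6.04 ± 1.06 (adjusted p = 8.3e-05, limma). In C. azalea its season difference was -2.02 ± 0.42 (adjusted p = 0.001, limma) and became -1.72 without Jun. For both IDs the highest C. japonica spring library was Mar 3. EVM0011960, EVM0029638 and EVM0020995 were not called with month means as the units, at adjusted p values of 0.17, 0.2 and 0.15.

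The IDs named for the season in C. azalea did not all differ between the species. EVM0026539 and EVM0009890 were also higher in summer in C. japonica, by 3.09 (adjusted p = 5.6e-05, limma) and 1.94 (adjusted p = 2.8e-04), and the species differences of -0.71 and -0.25 did not pass (adjusted p of 0.37 and 0.75). EVM0018558 was higher in summer by 4.49 in C. azalea and by 1.57 in C. japonica, and this species difference of 2.92 was called (adjusted p = 0.0042, limma). Its C. japonica means were only 3.069 TPM in summer and 0.0387 TPM in spring. The log2(TPM + 1) scale understates changes at such levels. Whether the proportional change of EVM0018558 differed between the species was not tested. EVM0025712 was lower in summer in both species, with differences of -3.32 in C. azalea and -1.69 in C. japonica, a species difference of -1.63 that was called (adjusted p = 0.004). EVM0036909 had a species difference of -4.47 (adjusted p = 1.5e-09, limma) and EVM0034352 one of -4.65 (adjusted p = 0.0012). Both were also low in C. japonica. The means there were 2.374 TPM in summer and 0.167 TPM in spring for EVM0036909, and 0.405 and 2.913 TPM for EVM0034352. EVM0018786, the ID of Jul in C. azalea, was listed at 0 in all 36 C. japonica leaf libraries.

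**Figure D5:**
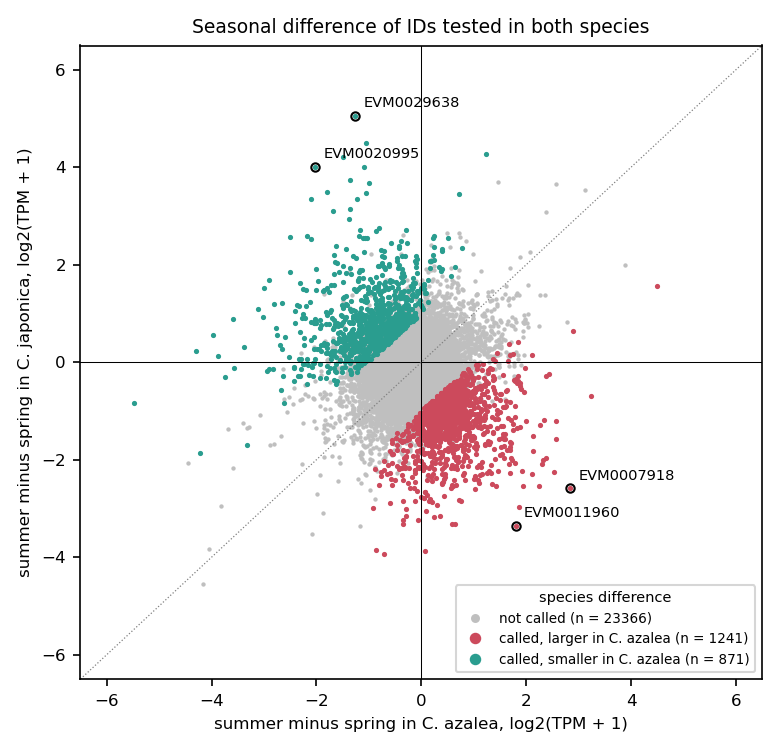
Summer minus spring difference on the log2(TPM + 1) scale in C. azalea (horizontal axis) and in C. japonica (vertical axis) for the 25478 IDs tested in both species, with the IDs called for the species difference in colour (1241 larger and 871 smaller in C. azalea) and the 4 IDs named for it circled. The named IDs lie in the quadrants of opposite change.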

How the data were processed

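TPM were deposited by the authors, in 1 table per species with 1 column per library. The tools were HISAT2 2.1.0 and StringTie 1.3.6, per the submitters' processing notes. Not given in the sources used here were their settings, the annotation and the build. Columns were tied to libraries through the codes in the sample titles. TPM keep no depth, so no counting interval is given. The species, the months and the choice of comparisons and of IDs to name were made with earlier results of these data known. No IDs were paired with names (0 matched), so no gene lists were tested.

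Tests were two-sided, in R 4.3.3 with limma 3.58.1 and a mean-variance trend, on log2(TPM + 1), with a mean for each of the 12 months fitted over the 36 C. azalea leaf libraries. IDs needed 1 TPM in at least 3 libraries. The species difference came from 1 fit of the leaf libraries of both species. P-values were adjusted by Benjamini-Hochberg over all IDs tested, and a call needed an adjusted p under 0.05 and a difference of 1 or more on the log2 scale. Differences on this scale understate the change of IDs with low values. The procedures were tested on simulated data.

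The rule for named IDs took, for summer minus spring, Jun minus May and the species difference, the 2 called IDs with the largest positive and the 2 with the largest negative difference among those averaging 5 TPM or more in the higher group. It added the 2 rising and 2 falling IDs with the widest gap between all 9 libraries of each season, and the 1 rising and 1 falling ID whose difference shrank most when 1 month was left out. Alternatives were other pseudocounts, filters, scalings, weights, replicate numbers as a term, months as units, and leaving out libraries or months.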

Additional observations from a re-analysis of the deposited data

Results flagged for a closer look

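Among 36 groups of 9 libraries checked for the named IDs (each ID in each season of C. azalea), 4 had a library far from the others of its season. The limit used would flag about 1 in 20 groups of 9 values drawn from 1 normal distribution. Each group here pools 3 months, and the IDs were picked for large differences. The count of 4 in 36 therefore cannot be read against that rate. EVM0041077 was at 107 TPM in Jul 1, with every other summer library listed at 0. EVM0036909 was at 1.70 TPM in Jun 2, with the next highest summer library at 0.5995 TPM. EVM0029638 was at 227 TPM in May 1, with the next lowest spring library at 831 TPM. EVM0018786 was at 0.886 TPM in Mar 2, with the next highest spring library at 0.217 TPM.

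For 13 of the 18 named IDs, the summer minus spring difference in C. azalea was called different from that in C. japonica. A call needed an adjusted p below 0.05 in limma and a size of at least 1, and 7.59% of all IDs tested had one. The difference was larger in C. azalea, on the log2 scale, by 5.42 for EVM0007918, 5.15 for EVM0011960, 2.93 for EVM0033164, 2.92 for EVM0018558, 2.45 for EVM0014714 and 1.82 for EVM0018786. It was smaller in C. azalea for the rest, at -6.32 for EVM0029638, -6.04 for EVM0020995, -4.65 for EVM0034352, -4.47 for EVM0036909, -3.94 for EVM0009966, -1.63 for EVM0025712 and -1.16 for EVM0005116. EVM0007918, EVM0011960, EVM0029638 and EVM0020995 were named for this difference, so that their place here follows from the rule. The other named IDs were picked for large or clear differences among the same C. azalea libraries, which favours a call here. The count of 13 is therefore no result about the species. EVM0018786 was listed at 0 in all 36 C. japonica leaf libraries, so its value is that of C. azalea alone. EVM0018558, EVM0034352 and EVM0036909 were low in C. japonica in both seasons, where the log2(TPM + 1) scale understates changes. What this contributed to their values was not tested.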

How the results depend on the processing

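Counts of calls from limma moved by more than 1.5 times as follows. For summer against spring (1251), a pseudocount of 0.1 gave 2356, a pseudocount of 5 gave 435, months as the units gave 3 and leaving out May gave 1896. For Jun against May (1759), a pseudocount of 5 gave 1066, array weights gave 4033 and leaving out the 3 libraries that correlate best with another month gave 3104. For the species difference (2398), a pseudocount of 5 gave 1259, array weights 3969 and months as the units 162. The array weights had not fully converged. Rescaling gave 1243 for summer against Apr and 526 for summer against May, and without the 3 libraries the counts were 1531 for Aug against spring and 735 for summer against May. Leaving out each library in turn gave 1049 to 1552 for the season, 1200 to 2351 for Jun against May, 1905 to 2631 for the species difference and 1485 to 2112 for C. japonica. For C. japonica and for single months this was added after seeing the data. It gave 1744 to 3019 for Jun, 1688 to 2478 for Jul and 280 to 1495 for Aug against spring, and 2119 to 2597 for summer against Mar, 1054 to 2867 against Apr and 132 to 371 against May. Among named IDs, EVM0005116 came to 0.95 without Jun and EVM0018786 to -0.12 without Jul. EVM0036909, near 0 in summer, ran between -6.08 and -1.84 over the other settings. EVM0005116 also lost its call in 6 of 18 fits with a library left out.

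Replicate numbers did not pair the C. azalea libraries. A correlation of deviations over 0.1 was seen for 13 of 45 same-number pairs and 30 of 90 other-number pairs. The median correlations were -0.012 and 0.0045, and 3 of 18 libraries correlated best with their own number. The replicate block gave 1242 calls for the season and 1679 for Jun against May. No block was fitted for the species difference, because the C. japonica numbers follow the order of deposit. Depth is unknown, no plant of origin is given, and 3 months per season limit any test across months.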

Other observations

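The most abundant ID in both seasons, EVM0010849, lay outside the rule and was looked at for its level. It averaged 32134 TPM in summer and 24440 TPM in spring, and its log2 difference of 2.04 ± 0.79 did not pass (adjusted p = 0.0857, limma). EVM0028917 followed, with 21079 TPM in summer and 19275 TPM in spring and a difference of 0.16 ± 0.18.

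After rescaling, the separation of months described above was more frequent among summer-high and less frequent among spring-high IDs (41.2% and 69.1% as deposited). All 3 summer month means lay above or below all 3 spring month means for 226 of 501 summer-high IDs (45.1%) and 434 of 690 spring-high IDs (62.9%). All 9 libraries were separated for 20 (3.99%) and 80 (11.6%) of them, against 1.69% and 9.14% as deposited. The rescaled shares over all tested IDs were not counted.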
